A study of Mus musculus with 2 samples.

Results

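The 9 genes Vegfa, Vegfb, Pgf, Adm, Angptl4, Angpt2, Apln, Pdgfa and Pdgfb encode secreted factors that act on blood vessels, and they were followed here through the cell classes of mouse retina. They were taken by symbol from the 31053 genes of the count tables, and all 9 were found. Their unique molecular identifier (UMI) counts, in which each captured RNA molecule is counted once, were compared between 1 control library and 1 library from oxygen-induced retinopathy (OIR). Both libraries came from wild-type C57BL/6 mice at postnatal day 17, with the retinas of 6 mice pooled in each. The OIR pups and their nursing mother breathed 75% oxygen from postnatal day 7 to day 12 and room air afterwards, which in this model is used to stop vessel growth and then leave the inner retina short of oxygen. The labels give the other group as control and state no oxygen treatment of its own. In both groups the tissue was digested with papain at 15 U/mL, and cells bound by magnetic beads against CD11b, an integrin that myeloid cells such as microglia carry, were sequenced in droplets.

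Low oxygen stabilises hypoxia-inducible transcription factors, which switch on Vegfa, adrenomedullin (Adm) and other vessel growth genes. VEGF-A is made in the retina by Müller glia, astrocytes and neurons and drives endothelial sprouting through the receptor Kdr, while Flt1 binds VEGF-A, VEGF-B and placental growth factor (Pgf). Endothelial tip cells at the front of growing vessels are known for apelin (Apln), angiopoietin-2 (Angpt2), Esm1 and Pdgfb, and PDGF-B from endothelium holds pericytes on the vessel wall through Pdgfrb.

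The labels name the cells retinal microglia, but most kept barcodes carried the markers of other cells. The tables hold 50081145 control and 49773742 OIR UMIs. After filtering, 8585 control and 6132 OIR cells remained, with medians of 1648 and 2828.5 UMIs per cell. Of these, 78.6% in control and 60.9% in OIR were rod-like, while myeloid classes held 10.3% and 12.6%. Barcode sequences shared by both libraries numbered 89 in all and 30 among the kept cells, and the Y-linked gene Ddx3y stood at 27.7 CPM (UMIs of the gene scaled to the same total of UMIs in every library or class) in control and 12.5 in OIR. Müller-like cells numbered 243 and 291, cone-like 338 and 761, bipolar-like 269 and 475, endothelial-like 40 and 9, and pericyte-like 7 and 6. Microglia-like cells numbered 828 and 385, and a myeloid cluster led by Mmp12, Spp1 and Cd74 that met no class rule held 38 control and 292 OIR cells. Defining genes were present in the classes used: Rlbp1 at 2625 and 946 CPM in Müller-like cells, Cldn5 at 5914 and 2092 in endothelial-like cells, Rgs5 at 8784 and 4707 in pericyte-like cells, and P2ry12 at 1603 and 685 in microglia-like cells. With 1 library per group no test across samples was possible, so intervals are 95% intervals that cover counting error only, and each difference is one between these 2 libraries.

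The genes lie on 8 chromosomes of build mm10 (GRCm38): Vegfa at chr17:46016993-46032369, Angptl4 at chr17:33773750-33781830, Vegfb at chr19:6982473-6987651, Pgf at chr12:85166635-85177790, Angpt2 at chr8:18690263-18741562, Apln at chrX:48025146-48034853, Pdgfa at chr5:138976014-138997370 and Pdgfb at chr15:79995874-80014977, all on the minus strand, and Adm at chr7:110627661-110629820 on the plus strand. All are protein-coding in GENCODE. Angpt2 overlaps Mcph1 on the opposite strand, and Adm, Pdgfa and Pdgfb overlap the non-coding or uncharacterised genes Gm28863, 6330403L08Rik and Gm41361 there. Whether counting used the strand is not given in the sources used here. RefSeq promoters on GRCm38.p6 were matched for 6 of the 9 genes, with no entry for Angptl4, Angpt2 and Pdgfb. The 250 bases before the first start site are shown for the 4 genes that were highest in Müller-like cells (Vegfa) or were called higher there in OIR (Adm, Apln and Pgf). Capitals mark ACGTG or GCGTG, the core of the hypoxia response element, read on either strand; a match is a description of these letters only. The windows are chr17:46032378-46032627 on the minus strand for Vegfa, chr7:110627407-110627656 on the plus strand for Adm, chrX:48034854-48035103 on the minus strand for Apln and chr12:85177314-85177563 on the minus strand for Pgf.
Vegfa: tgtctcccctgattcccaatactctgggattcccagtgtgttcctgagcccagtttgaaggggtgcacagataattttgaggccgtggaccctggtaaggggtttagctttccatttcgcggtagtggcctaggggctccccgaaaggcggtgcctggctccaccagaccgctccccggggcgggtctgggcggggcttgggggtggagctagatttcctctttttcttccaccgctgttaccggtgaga
Adm: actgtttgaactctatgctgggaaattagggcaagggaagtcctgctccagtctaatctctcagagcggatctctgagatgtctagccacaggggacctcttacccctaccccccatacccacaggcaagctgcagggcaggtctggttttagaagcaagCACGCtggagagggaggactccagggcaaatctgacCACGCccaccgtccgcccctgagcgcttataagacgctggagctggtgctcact
Apln: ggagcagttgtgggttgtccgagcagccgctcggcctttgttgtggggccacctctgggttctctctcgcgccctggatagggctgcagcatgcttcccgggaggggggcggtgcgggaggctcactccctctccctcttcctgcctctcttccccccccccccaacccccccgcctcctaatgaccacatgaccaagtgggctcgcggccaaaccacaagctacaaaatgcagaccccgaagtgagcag
Pgf: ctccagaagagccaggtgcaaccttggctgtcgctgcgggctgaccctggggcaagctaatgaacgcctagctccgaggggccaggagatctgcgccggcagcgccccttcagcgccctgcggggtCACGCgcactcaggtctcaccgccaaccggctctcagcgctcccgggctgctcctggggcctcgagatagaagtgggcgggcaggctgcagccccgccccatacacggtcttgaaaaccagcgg
The Adm window holds GCGTG on the other strand at 90 and 54 bases before the start, and the Pgf window holds it on the other strand at 124 bases. The windows of Vegfa and Apln hold neither sequence, although a window before an internal Vegfa start site holds GCGTG and ACGTG at 218 and 211 bases. Of 32851 RefSeq promoters searched over the same length, 38.6% hold at least 1 such sequence and 16.7% hold 2 or more.

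Over all kept cells, Vegfa had 1507 UMIs in control (39.2 CPM) and 5425 UMIs in OIR (126 CPM). Adm stood at 2.49 and 27.2 CPM, Apln at 2.70 and 27.3, Angpt2 at 1.45 and 8.76 and Pgf at 0.94 and 5.36. Vegfb (33.3 and 43.8 CPM) and Pdgfa (17.8 and 20.8) were higher in OIR by less. The intervals of these 7 genes did not overlap between the libraries, while Pdgfb (51.5 and 21.1) and Angptl4 (2.70 and 1.51) were lower in OIR. A level over all cells also moves with the mix of cells that the beads kept, so the classes were compared next.

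The class that held most of a factor differed from gene to gene. Müller-like cells, the radial glia that span the retina, held 49.6% of the Vegfa UMIs in control and 45.9% in OIR. Cone-like cells held 19.5% and 27.6% of Vegfa, and rod-like cells 13.4% and 8.70%. Adm lay mainly in endothelial-like (43.8%) and pericyte-like cells (41.7%) in control, and Müller-like cells held 10.4% of it in control and 38.5% in OIR. Apln was spread over Müller-like (40.4% and 25.4%), pericyte-like (36.5% and 32.8%) and endothelial-like cells (13.5% and 23.0%). Angpt2 UMIs in OIR lay in pericyte-like (51.9%) and endothelial-like cells (39.4%). Of the 195 OIR Angpt2 UMIs in pericyte-like cells, 194 lay in barcodes with at least 10 UMIs of the endothelial gene Cldn5. Every Adm and Apln UMI of the pericyte-like class also lay in such barcodes. Pdgfb UMIs lay in microglia-like cells in control (87.0%) and in Mmp12-led cells in OIR (65.5%). Pdgfa had its largest shares in the same classes, 39.5% in microglia-like cells of control and 33.1% in Mmp12-led cells of OIR. The shares depend on how many cells of each class passed the bead selection, and the plot of shares by class shows them for all 9 genes.

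**Figure D1:**
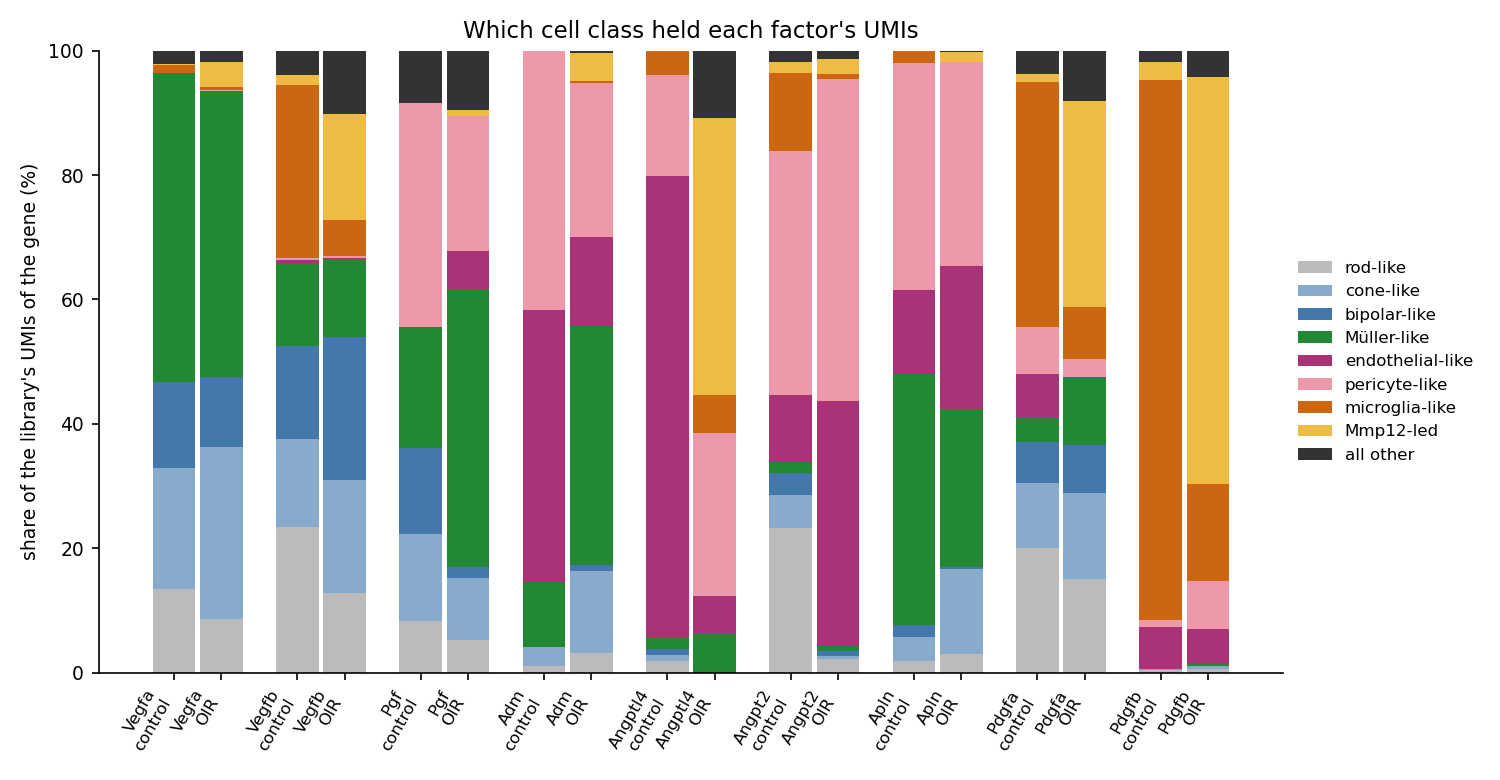
Share of each factor's UMIs (vertical axis, %) held by each cell class in the control and the OIR library; colours are the classes and each bar adds to 100%. Müller-like cells take 49.6% and 45.9% of Vegfa. The largest share of Pdgfb is in microglia-like cells in control (87.0%) and in Mmp12-led cells in OIR (65.5%). Mmp12-led cells numbered 38 in control and 292 in OIR, and their Pdgfb level was 145 and 117 CPM, so these shares show no rise within that cluster.

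Within classes, counts were summed and scaled to the UMI total of the class (CPM). A gene was called higher or lower in OIR where it reached 20 CPM in 1 library, differed at least 2-fold and had an interval of the log2 ratio that excluded 0. A gene that reached 20 CPM only in the library where it was high was bound to differ, so counts of members called are descriptions. All 9 factors reached 20 CPM in endothelial-like and pericyte-like cells, 5 did in Müller-like cells, 4 in Mmp12-led cells, 3 in microglia-like cells and 2 each in rod-, cone- and bipolar-like cells. These numbers also depend on class size, since few UMIs reach the minimum in a small class. In OIR endothelial-like cells Vegfa and Vegfb reached it on 3 UMIs each, and in control pericyte-like cells Vegfb did on 4 UMIs.

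**Figure D2:**
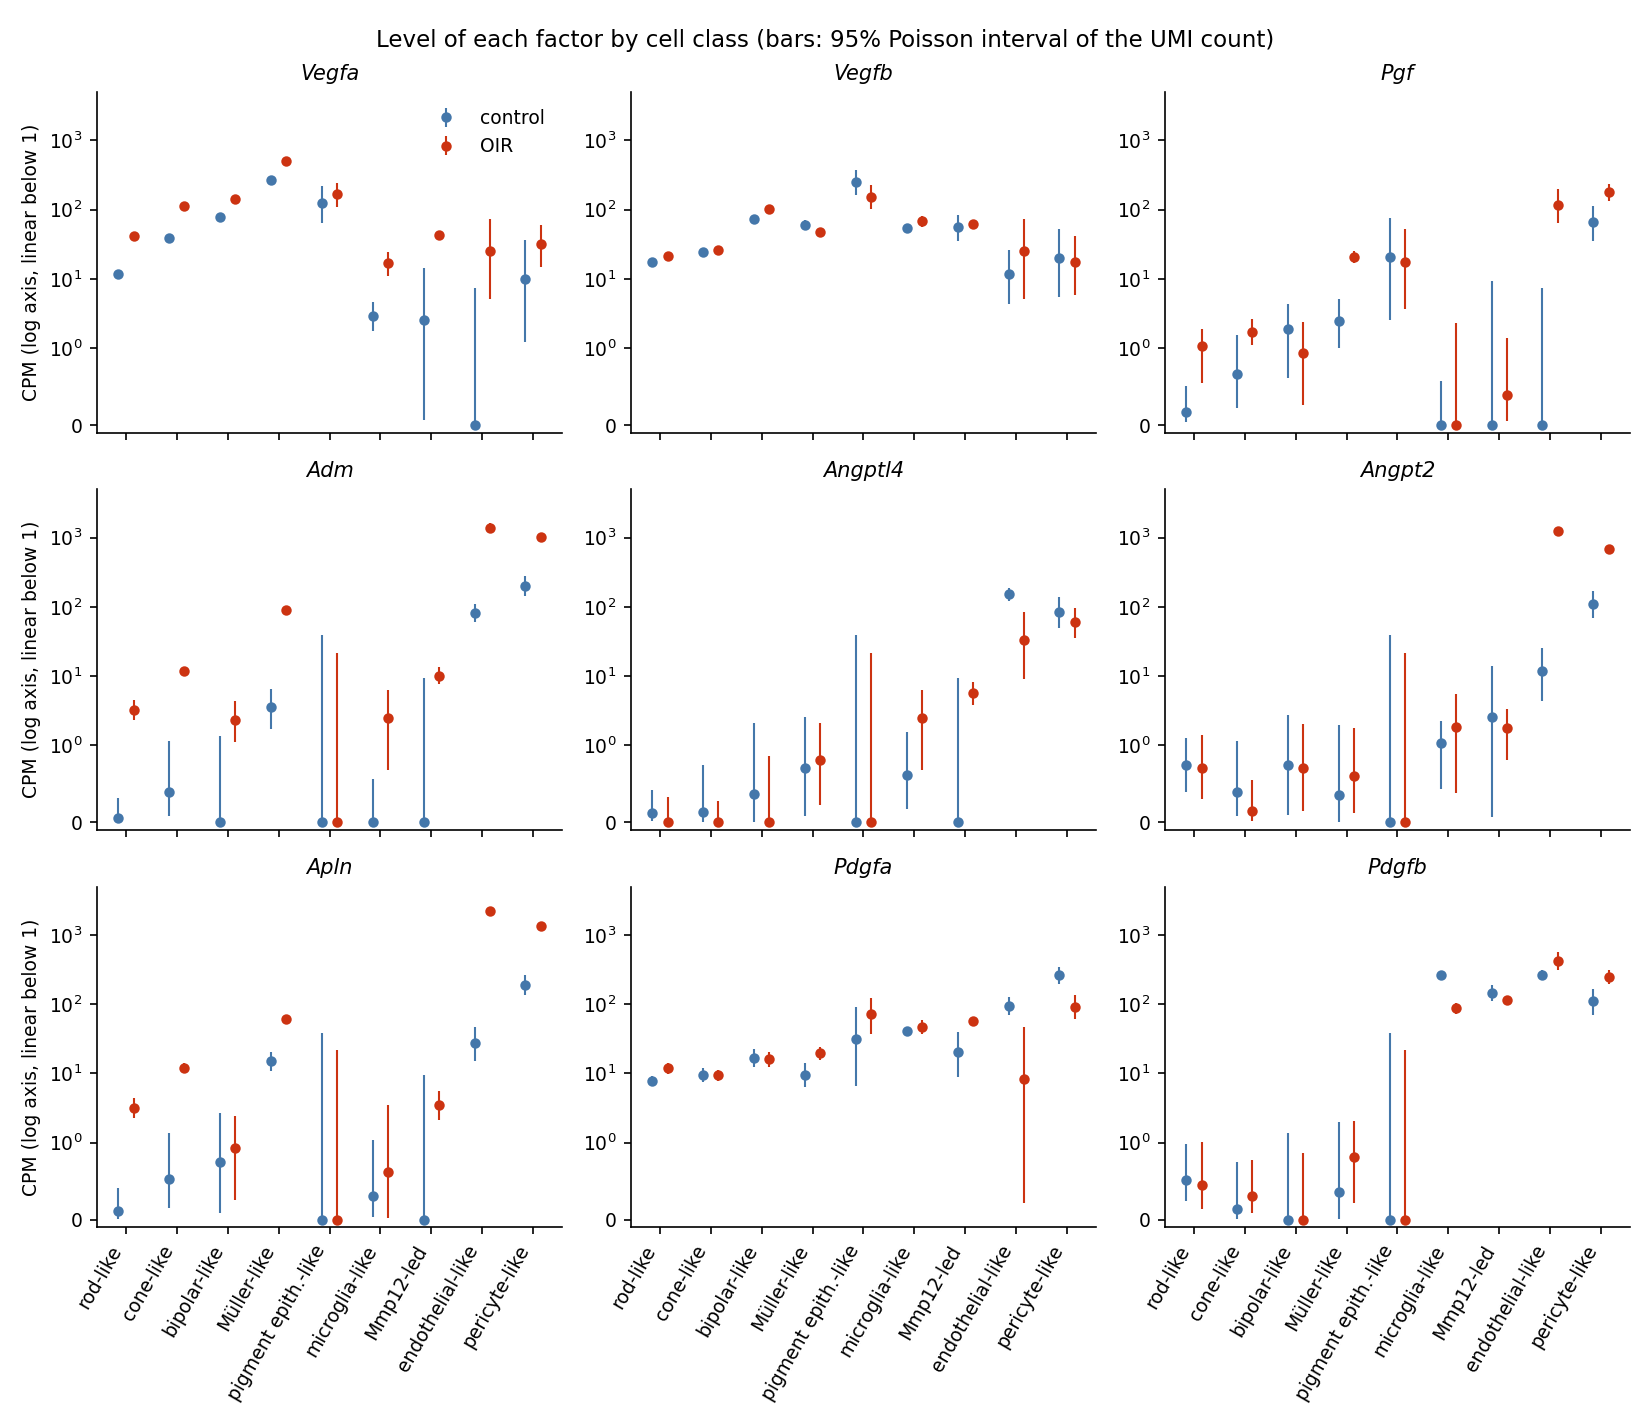
Level of each factor (vertical axis, CPM, log axis that is linear below 1) in 9 cell classes; points are the control (blue) and OIR (red) libraries and bars are 95% Poisson intervals of the UMI count. Vegfa is highest in Müller-like cells in both libraries, and Adm, Apln and Angpt2 are highest in endothelial-like and pericyte-like cells.

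Vegfa, the main driver of vessel sprouting, was highest in Müller-like cells in both libraries, with 265 CPM in the control and 505 CPM in the OIR library. The interval of this class was apart from that of the next class, pigment epithelium-like cells (126 and 166 CPM). Below them, bipolar-like cells stood at 78.3 and 143 CPM, cone-like cells at 39.3 and 113, and rod-like cells at 11.6 and 41.8. In OIR the intervals of the pigment epithelium-like, bipolar-like, ganglion-like and amacrine-like cells overlapped down this order. The OIR over control log2 ratio was 1.85 in rod-like cells (1.61 to 2.09) and 1.52 in cone-like cells (1.34 to 1.71), and both were called higher. Rod-like cells reached 20 CPM of Vegfa only in OIR. The cone-like call was lost without cells of 2% or more rod RNA (0.46) and without barcodes of 0.1% or more Müller glia RNA (0.89). The ratio was 0.93 in Müller-like cells (0.81 to 1.05) and 0.87 in bipolar-like cells (0.64 to 1.11), both short of 2-fold. Of all genes at the minimum level in the same class, the share called higher was 1.56% for rod-like, 1.81% for cone-like, 1.44% for bipolar-like and 3.35% for Müller-like cells, and the share called lower 0.214%, 0.211%, 0.85% and 4.37%.

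In Müller-like cells the Vegfa RNA was spread over most cells. Of 243 control cells 200 held at least 1 Vegfa UMI, and of 291 OIR cells 274 did, with medians of 2 and 7 UMIs per cell and maxima of 20 and 49. The median depth also differed, at 9105 and 14563 UMIs per cell, so cells were thinned to 1500 UMIs each and shallower cells were left out. This removed few cone-like cells (2 control and 6 OIR) but 3774 of 6750 control and 1850 of 3732 OIR rod-like cells. A Vegfa UMI was then found in 33.9% of the control Müller-like cells (27.9 to 40.2) and, in OIR, in 50.3% (44.4 to 56.3). The same thinned share was 11.2% and 20.2% in bipolar-like cells, 6.55% and 11.7% in cone-like cells, 1.44% and 5.05% in rod-like cells, and 0.52% and 4.59% in microglia-like cells. In OIR the interval of the rod-like share (4.10 to 6.14) overlapped that of microglia-like cells (2.53 to 7.58), whose median depths were 1511 and 2768 UMIs, so this share in rod-like cells does not stand above a class with little Vegfa.

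Different Müller-like clusters held most cells in each library: a cluster led by Spc25 had 188 control and 60 OIR cells, and a cluster led by Crym and Gfap had 55 and 231. Gfap, a glial filament gene that rises in stressed Müller glia, was 9.58 and 193 CPM over the whole class. Vegfa in the Crym-led cluster was 200 CPM in control and 528 CPM in OIR (log2 ratio 1.40, 1.20 to 1.61). In the Spc25-led cluster it was 307 and 362 CPM (0.24, 0.01 to 0.46). The median mitochondrial share of UMIs in Müller-like cells was 7.12% in control and 5.15% in OIR. Among cells at or under 5% (30 control and 132 OIR cells) Vegfa was 483 and 581 CPM, a log2 ratio of 0.27 with an interval that reached 0 (-0.01 to 0.55). Among cells over 5% it was 244 and 438 CPM (0.84). The part of the mitochondrial share in the class ratio was not tested beyond these values.

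The Vegfa difference in bipolar-like cells, the interneurons behind the photoreceptors, differed by cluster. It was 1.08 on the log2 scale in the Pcp2-led cluster (72.2 and 153 CPM), 0.99 in the Vsx1-led cluster (71.6 and 142 CPM) and 0.34 in the Lhx4-led cluster, where the interval included 0 (-0.18 to 0.87). Rod-like cells also fell into clusters of unequal make-up, and a cluster led by Fgf2 held 53 control and 1251 OIR cells. In 10 rod-like clusters with at least 50 cells in both libraries, the Vegfa log2 ratio ran from 0.02 to 2.38. Its interval lay above 0 in 6 of them and below 0 in none.

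Photoreceptor barcodes with Müller glia RNA carried more of these factors. Müller glia markers took 0.14% of UMIs in cone-like cells of control and 0.25% in OIR, and 0.04% and 0.08% in rod-like cells. Barcodes were split at a share of 0.1% over 10 of the 11 markers, leaving out Apoe, which microglia also express. Cone-like barcodes below 0.1% (298 and 633 cells) had Vegfa at 34.1 and 63.3 CPM, a log2 ratio of 0.89 that is under 2-fold. Those at or above 0.1% (40 and 128 cells) had 57.7 and 206 CPM. Rod-like barcodes below 0.1% had Vegfa at 11.2 CPM in 6507 control cells and 35.8 CPM in 3465 OIR cells. This split cannot show that they are free of Müller RNA. The 11 markers took 3.09% of UMIs in Müller-like cells of control but 1.47% in OIR, so the cut is not equal between libraries. At the rod-like median depths of 1404 and 1511 UMIs, a barcode with a Müller marker UMI can still fall below 0.1%. The part of Müller RNA in the rod-like ratio was not tested further. The cone-like class also held a deep cluster with a median of 31940 UMIs, where Vegfa was 33.8 and 154 CPM. In the other cone-like cluster it was 49.4 and 67.9 CPM (log2 ratio 0.46, 0.17 to 0.76).

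Adm and Apln in photoreceptors lay mostly in the barcodes with Müller glia RNA. Of the 155 Adm UMIs in OIR cone-like cells, 151 were in the 128 barcodes at or above 0.1%, a level of 32.9 CPM against 0.46 CPM in the others. Apln was 33.8 and 0.46 CPM in the same split. In OIR rod-like cells, 29 of 37 Adm UMIs and 28 of 36 Apln UMIs lay in 267 of 3732 barcodes. The plot of factor level against Müller marker RNA shows this rise over 5 bins.

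**Figure D3:**
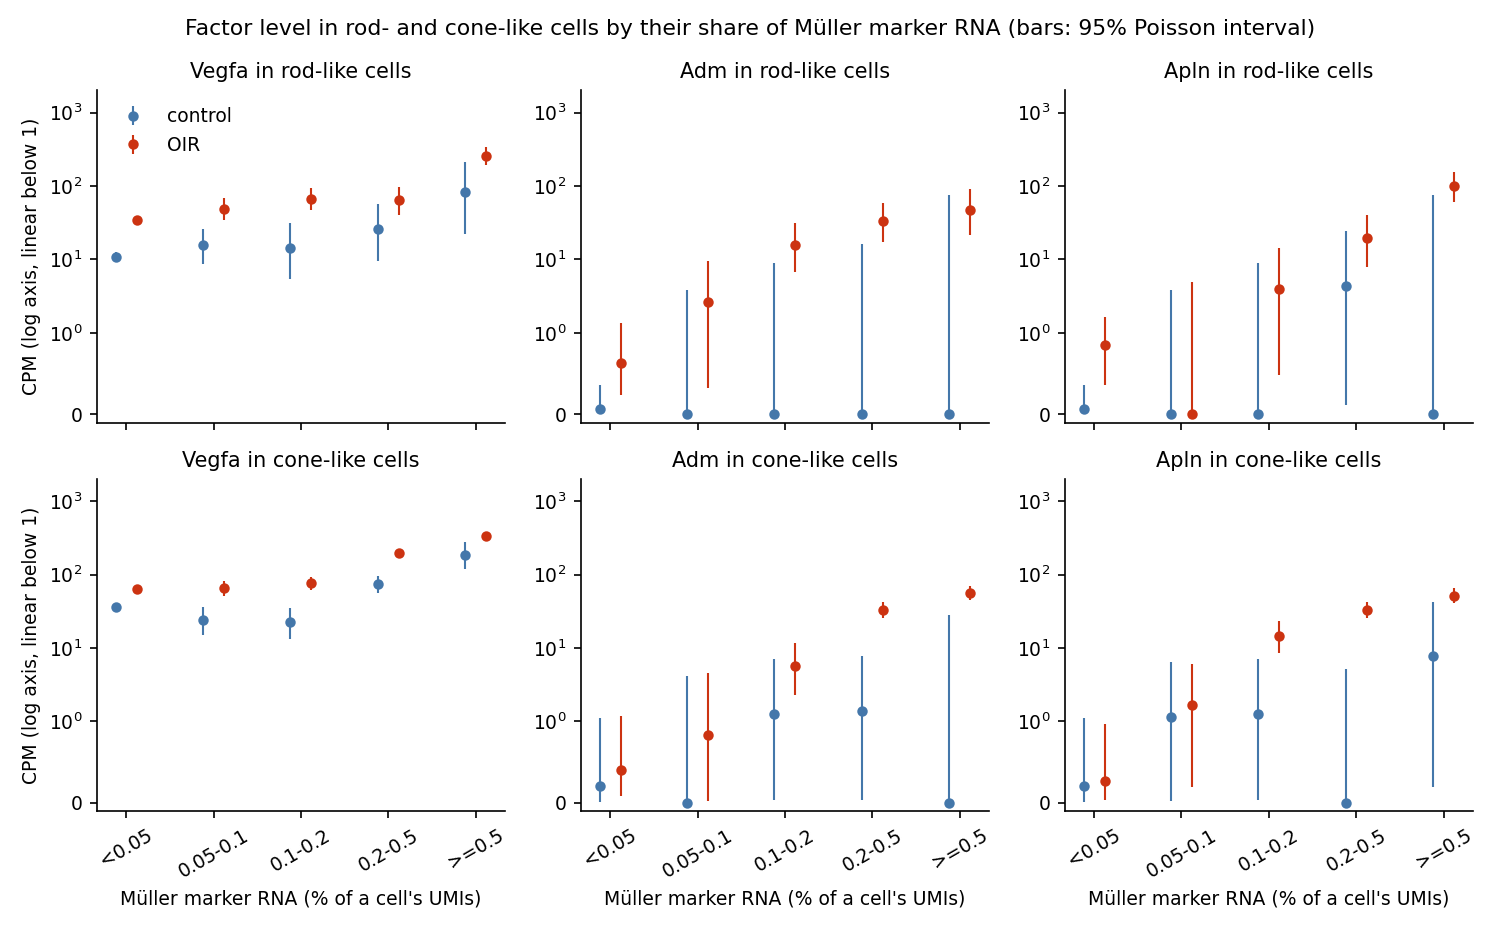
Level of Vegfa, Adm and Apln (vertical axis, CPM, log axis that is linear below 1) in rod-like (top) and cone-like cells (bottom), binned by the share of a cell's UMIs from 10 Müller glia markers (horizontal axis, %); points are libraries and bars 95% Poisson intervals. In OIR cone-like cells Adm and Apln stay near 0.46 CPM below 0.1% and stand at 32.9 and 33.8 CPM at or above it, while Vegfa is present in all bins.

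Myeloid cells held little Vegfa in control. Microglia-like cells had 19 UMIs in 828 control cells (2.92 CPM) and 27 in 385 OIR cells (16.8 CPM), under the 20 CPM minimum in both. Mmp12-led cells had 1 UMI in 38 control cells (2.55 CPM) and 216 UMIs in 292 OIR cells (42.4 CPM), a log2 ratio of 4.06 with a wide interval (1.57 to 9.37). In that OIR cluster 85 cells carried Vegfa, and the 29 cells with the most held 67.6% of it. Neutrophil-like cells had 0 UMIs in 11 control cells and 20 in 20 OIR cells (64.4 CPM). That is 2.52-fold higher when the count of 0 is set to 3, with an interval from 1.87-fold upward. In 1 cell lay 45% of those 20 UMIs. Endothelial-like cells, the target of VEGF-A, had 0 Vegfa UMIs in control and 3 in OIR.

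Vegfb and Pgf are relatives of Vegfa that bind Flt1 and not Kdr. Vegfb was called in no class. Its control and OIR levels were 72.3 and 101 CPM in bipolar-like cells, 60.7 and 48.0 in Müller-like cells, 54.9 and 67.6 in microglia-like cells, 24.2 and 25.8 in cones and 17.3 and 21.4 in rods. Its log2 ratios in these 5 classes lay between -0.34 in Müller-like and 0.48 in bipolar-like cells. Pgf was rare in control Müller-like cells, with 7 UMIs in 7 of 243 cells (2.48 CPM). In OIR it had 103 UMIs in 54 of 291 cells (20.9 CPM), a log2 ratio of 3.07 (1.98 to 4.42) and a call of higher. Among cells at or under 5% mitochondrial UMIs the Pgf ratio was 1.85 and its interval reached below 0 (-0.06 to 4.92), on 2 control UMIs. Pgf was also found in OIR endothelial-like cells (14 UMIs, 117 CPM, against 0 in control). That is 19.7-fold higher when the count of 0 is set to 3, with an interval from 14.0-fold upward. In 1 barcode lay 57.1% of those 14 UMIs. Pericyte-like cells had Pgf at 65.6 and 177 CPM (log2 ratio 1.43). Of the 50 OIR pericyte-like UMIs, 48 lay in barcodes with at least 10 UMIs of the endothelial gene Cldn5, and in the others the ratio turned to -0.96.

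Adm encodes adrenomedullin, a peptide that widens vessels and acts on endothelium through Calcrl with Ramp2 or Ramp3. In Müller-like cells Adm had 10 UMIs in 5 of 243 control cells (3.55 CPM) and 450 UMIs in 118 of 291 OIR cells (91.2 CPM). The log2 ratio was 4.68 (3.79 to 5.75), and Adm was 1 of 3 factors called higher in this class, with Pgf and Apln. These were 3 of the 5 factors at the minimum level, and 3.35% of all genes were called higher and 4.37% lower. All 3 reached 20 CPM only in OIR, so that their being higher there was fixed by the minimum. Vegfa and Vegfb, which reached it in both libraries, were not called. The 29 OIR cells with the most Adm held 56.0% of its UMIs, and the 29 with the most Apln held 48.8% of that gene. Such a share rises as a gene's count falls, so it was not set against that of Vegfa. After thinning, 0.41% of control and 9.72% of OIR Müller-like cells held an Adm UMI, against 0 of 770 and 0 of 305 microglia-like cells. It was higher in OIR in both Müller-like clusters, from 2.73 to 102 CPM in the Crym-led and from 4.07 to 22.1 CPM in the Spc25-led cluster. Among cells at or under 5% mitochondrial UMIs the levels were 28.9 and 114 CPM, and the log2 ratio fell to 1.98 (0.92 to 3.31) on 7 control UMIs.

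Apln, the peptide ligand of the receptor Aplnr, moved in Müller-like cells with a smaller ratio. It had 42 UMIs in 35 of 243 control cells (14.9 CPM) and 297 UMIs in 129 of 291 OIR cells (60.2 CPM), a log2 ratio of 2.01 (1.54 to 2.52). The ratio was 3.12 in the Crym-led cluster and 1.01 in the Spc25-led cluster. Among cells at or under 5% mitochondrial UMIs it was 1.03 (0.07 to 2.18), at 37.1 and 75.6 CPM on 9 control UMIs. In OIR, 70 Müller-like cells held both Adm and Apln, which is 59.3% of the cells with Adm and 54.3% of those with Apln. The median depth of those 70 cells was 19199 UMIs, above the 14563 of all OIR Müller-like cells. All but 1 of the 118 cells with Adm also held Vegfa, but so did 274 of all 291 OIR Müller-like cells.

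**Figure D4:**
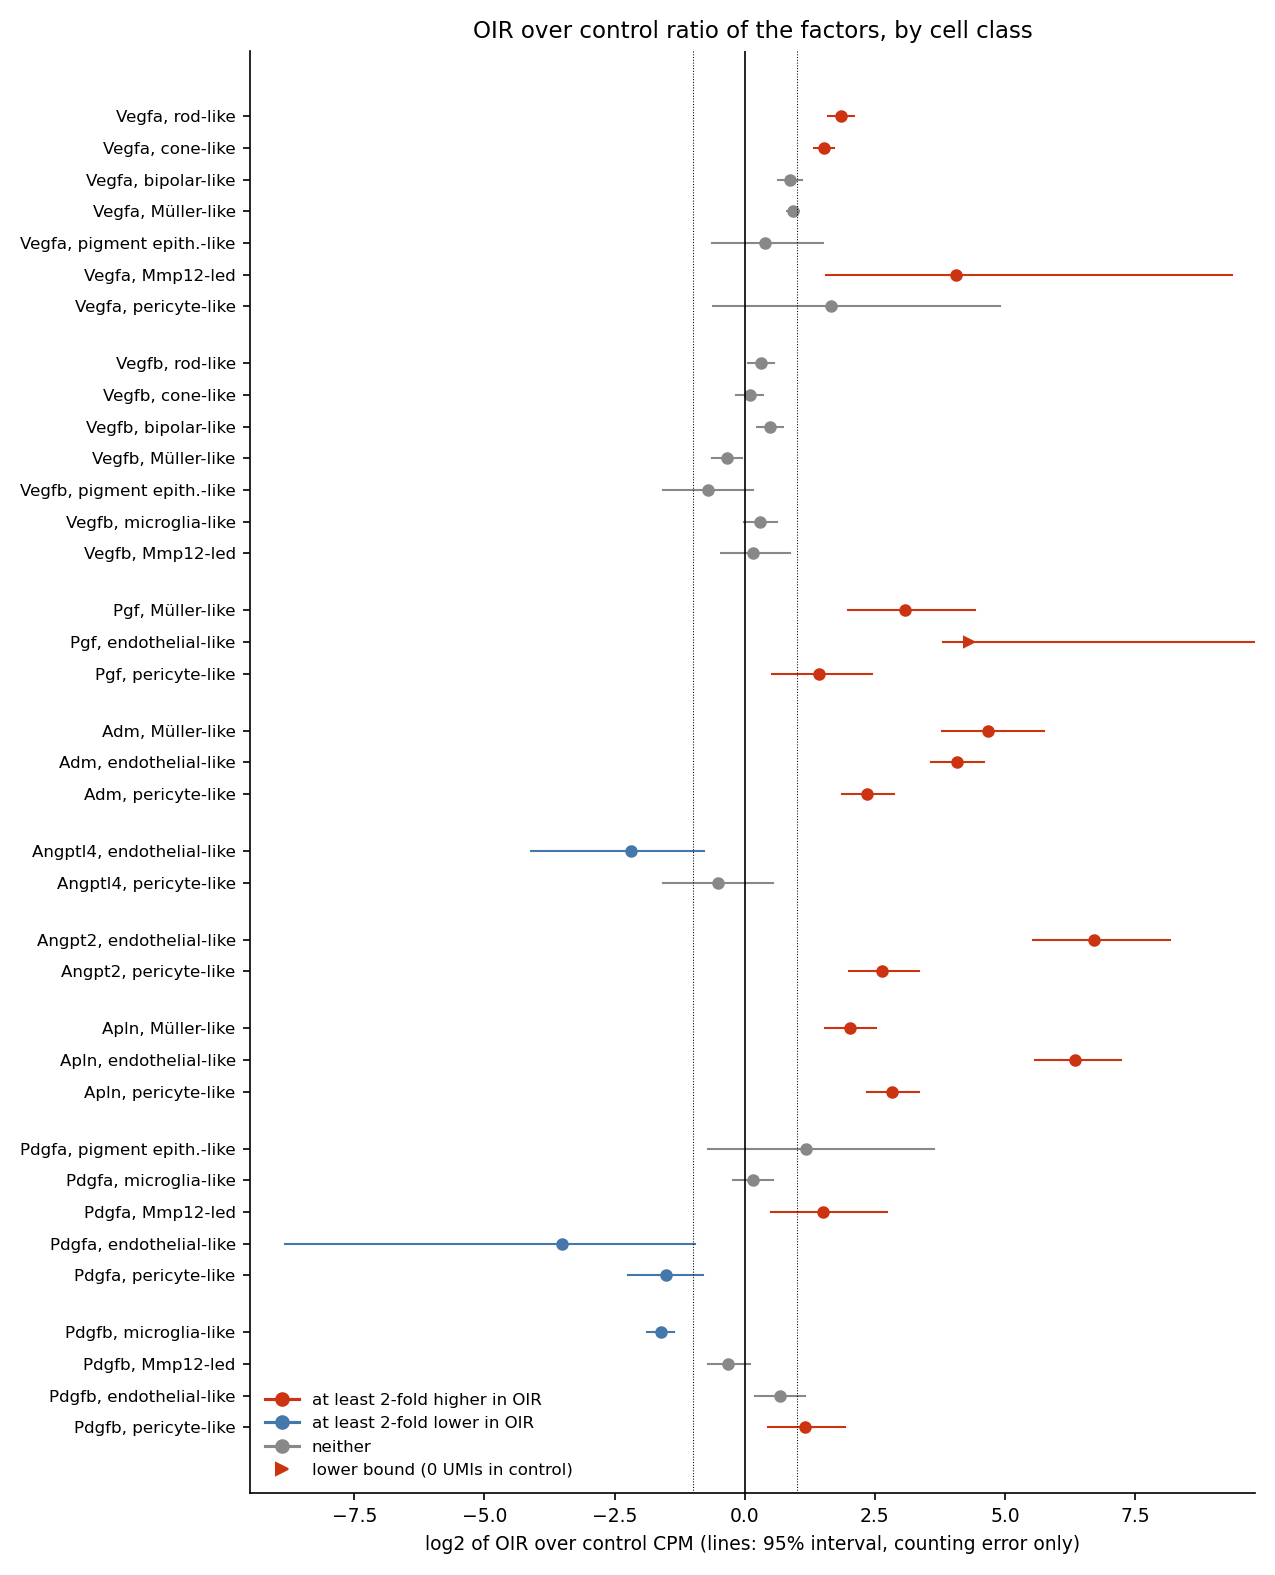
Log2 ratio of OIR over control CPM (horizontal axis) for the factors and classes that reached 20 CPM in 1 library with enough UMIs for a ratio. Lines are 95% intervals for counting error, and dotted lines mark 2-fold. A triangle, named a lower bound in the legend, is a ratio with the control count of 0 set to 3. Vegfa in Müller-like cells (0.93) lies just under 2-fold, while Adm in Müller-like cells (4.68) and Angpt2 in endothelial-like cells (6.70) lie far above it.

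Endothelial-like cells, which line the vessels, were few, and 9 OIR barcodes carry every OIR value of this class. Angpt2, a ligand of the Tek receptor that loosens vessel walls, had 6 UMIs in control (11.8 CPM) and 148 in OIR (1234 CPM), a log2 ratio of 6.70 (5.55 to 8.17). Apln had 14 UMIs (27.6 CPM) and 269 UMIs (2242 CPM), a log2 ratio of 6.34 (5.57 to 7.23). Adm had 42 UMIs (82.8 CPM) and 168 UMIs (1400 CPM), a log2 ratio of 4.08 (3.58 to 4.60). Together with Pgf, these 4 of 9 factors were called higher in a class where 7.1% of all genes were, and 2 were called lower where 6.78% were. Of those called, Angpt2 and Pgf reached 20 CPM only in OIR, and Pdgfa only in control.

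The OIR endothelial-like signal was present in several barcodes but led by a few. Of the 9 barcodes, 6 held Apln (23 to 88 UMIs) and Adm (6 to 82 UMIs), and the other 3 had 1096 to 1313 UMIs in total and no Apln or Adm. In 1 barcode lay 48.8% of the Adm, and the barcode with the most Apln held 32.7% of it. With barcodes under 2000 UMIs left out (33 control and 6 OIR), the log2 ratios were 7.17 for Apln, 7.30 for Angpt2 and 4.17 for Adm. The control barcodes left out held 6 of the 14 control Apln UMIs. A small cluster led by Esm1, a tip cell gene, held 7 control and 4 OIR barcodes, with Apln at 197 and 3448 CPM. In the other endothelial-like clusters (33 and 5 barcodes) Apln was 16.8 and 1921 CPM, so OIR was higher in both. When each cell was named by itself from its markers, the class ratios were 4.04 for Apln and 1.77 for Adm.

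Angptl4, a secreted inhibitor of lipoprotein lipase, went the other way in endothelial-like cells. It had 77 UMIs in 25 of 40 control cells (152 CPM) and 4 UMIs in 1 of 9 OIR cells (33.3 CPM), a log2 ratio of -2.19 (-4.10 to -0.77). In pericyte-like cells it stood at 85.8 and 60.3 CPM, 17 UMIs in each library, with an interval that included 0. With each cell named by itself, the endothelial-like ratio was -5.23. In OIR, 29 of the 65 Angptl4 UMIs of the library lay in Mmp12-led cells (5.70 CPM), where control had 0.

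Pericyte-like barcodes, which carry Rgs5 and other mural genes, in part held endothelial RNA too. Adm was 202 and 1025 CPM in this class, Apln 192 and 1362 CPM and Angpt2 111 and 692 CPM, with log2 ratios of 2.34, 2.83 and 2.64. With Pgf and Pdgfb these made 5 of 9 factors called higher, against 4.65% of all genes, and Pdgfa was called lower, against 8.87%. However, 2 of 7 control and 4 of 6 OIR barcodes held at least 10 UMIs of the endothelial gene Cldn5. These barcodes held every Adm UMI (40 in control and 289 in OIR) and every Apln UMI (38 and 384) of the class. They held 194 of its 195 Angpt2 UMIs in OIR, but 3 of 22 in control. In the other 5 control and 2 OIR barcodes there was no Adm or Apln. Angpt2 there was 172 CPM in control and 30.3 CPM in OIR and Pgf 117 and 60.5 CPM, so both directions turned, on 1 and 2 OIR UMIs. The plot of each vascular barcode shows these factors beside Cldn5.

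**Figure D5:**
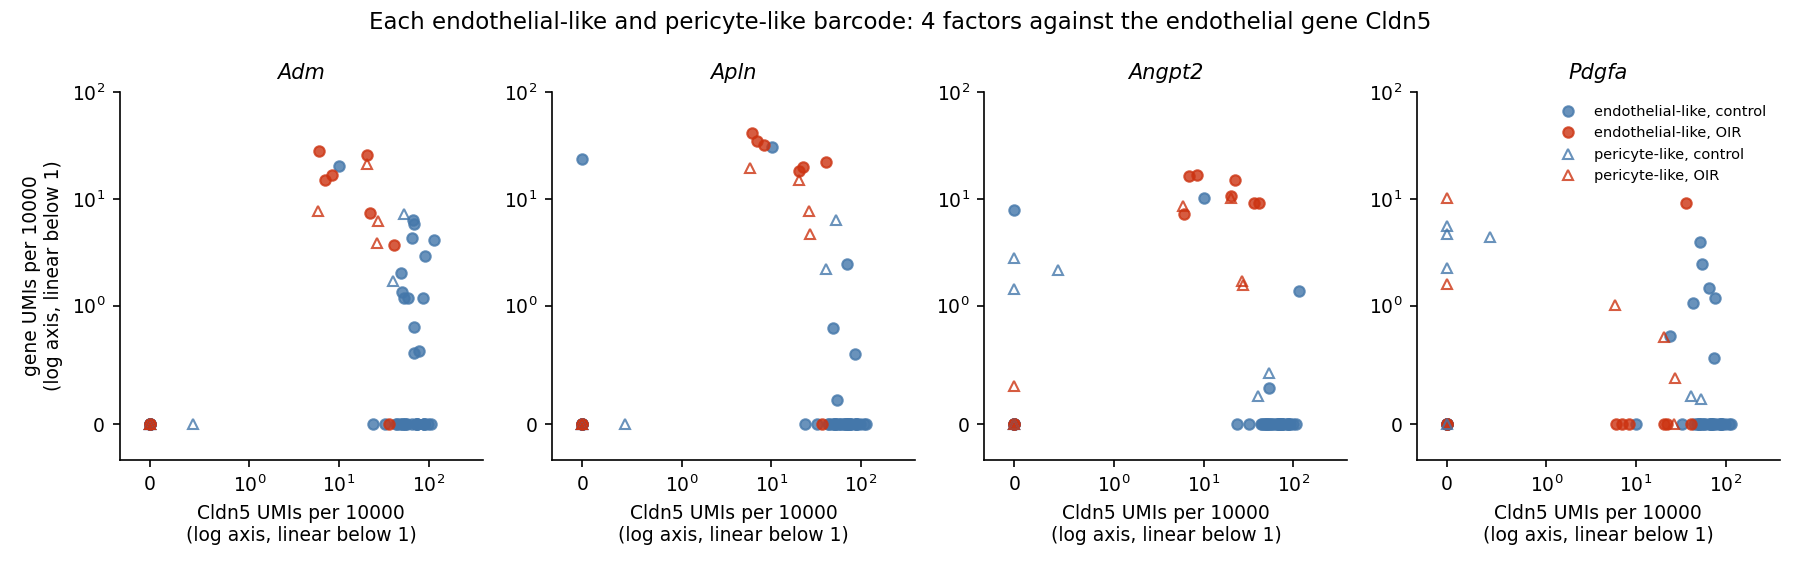
UMIs per 10000 of Adm, Apln, Angpt2 and Pdgfa (vertical axes) against Cldn5 (horizontal axes), both on log axes that are linear below 1, for every endothelial-like (circles) and pericyte-like barcode (triangles); blue is control and red OIR. Pericyte-like barcodes with Adm or Apln are the 2 control and 4 OIR barcodes with at least 10 Cldn5 UMIs, and Pdgfa in pericyte-like cells lies mostly in barcodes with fewer than 10 Cldn5 UMIs in control (50 of 52 UMIs) but not in OIR (7 of 26).

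Pdgfb, the pericyte-recruiting ligand, was high in microglia-like cells of control, where it had 1725 UMIs in 494 of 828 cells (265 CPM). In OIR it had 140 UMIs in 55 of 385 cells (86.9 CPM), a log2 ratio of -1.61 (-1.87 to -1.36), or 3.05-fold lower. This class leaves out the Mmp12-led cluster, where Pdgfb was 145 and 117 CPM. With that cluster added, the Pdgfb ratio moved outside this interval, toward a smaller difference. It was 1 of 3 factors at the minimum level in this class, where 9.32% of all genes were called lower and 5.82% higher. Most microglia-like cells were in a cluster led by Selplg, P2ry12 and Tmem119 in control (668 cells, 100 in OIR) and in a cluster led by Lgals3 in OIR (285 cells, 160 in control). Pdgfb was 278 and 165 CPM in the former, a log2 ratio of -0.76 (-1.03 to -0.50) that is under 2-fold. In the Lgals3-led cluster it was 23.5 and 12.2 CPM, on 8 and 10 UMIs, with an interval that included 0 (-2.44 to 0.59). After thinning, 25.3% of control and 6.56% of OIR microglia-like cells held a Pdgfb UMI, against 0 of 336 and 0 of 755 cone-like cells. The median log2 ratio over all genes in this class was -0.22, and the median-of-ratios scaling, which removes that shift, called 542 genes higher and 264 lower in place of 352 and 564.

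Other classes also held Pdgfb, and in control the intervals of neutrophil-like, microglia-like and endothelial-like cells overlapped. Mmp12-led cells had 145 CPM in control and 117 CPM in OIR (log2 ratio -0.32, -0.71 to 0.10). Endothelial-like cells had 264 and 425 CPM (0.69, 0.19 to 1.16), but when each cell was named by itself from its markers the ratio turned to -2.46. Neutrophil-like cells had 298 and 99.8 CPM, on 35 and 31 UMIs (-1.58). Pericyte-like cells had 111 and 248 CPM (1.16, 0.45 to 1.92), and in barcodes with at least 10 Cldn5 UMIs the values were 218 and 281 CPM (0.37, -0.38 to 1.19).

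Pdgfa, a ligand of Pdgfra that retinal neurons use to attract astrocytes, was found in nearly all classes. Microglia-like cells had 41.6 and 46.5 CPM (log2 ratio 0.16, -0.23 to 0.53), and within the Selplg-led cluster 43.5 and 69.7 CPM (0.68, 0.24 to 1.10). Mmp12-led cells had 8 UMIs (20.4 CPM) and 295 UMIs (58.0 CPM), a log2 ratio of 1.51 (0.51 to 2.73). Pdgfa and Vegfa were the 2 of 4 factors called higher in these cells, where 3.3% of all genes were called higher and 5.6% lower. Vegfa reached 20 CPM there only in OIR. Rod-like, cone-like and bipolar-like cells stood below 20 CPM in both libraries, at 7.88 and 11.9, 9.61 and 9.35, and 16.9 and 16.2 CPM. In pericyte-like cells Pdgfa was 263 and 92.2 CPM (-1.51, -2.25 to -0.80), and in those with fewer than 10 Cldn5 UMIs 452 and 212 CPM, with an interval that reached above 0 (-2.48 to 0.06). In pericyte-like barcodes with at least 10 Cldn5 UMIs the direction turned, at 22.9 and 76.4 CPM on 2 and 19 UMIs (log2 ratio 1.74, -0.31 to 4.88). In endothelial-like cells it was 94.6 CPM in control and 8.34 CPM in OIR (1 UMI), and 24 of the 48 control UMIs came from 1 cell.

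Receptors of the factors were read in the same classes, and Müller-like cells carried several. Of 17 receptors and co-receptors, 8 reached 20 CPM in Müller-like cells, with 0 at least 1.5-fold higher and 4 lower in OIR and a median log2 ratio of -0.56. Over all genes in that class 8.87% were 1.5-fold higher and 12.8% lower. Kdr, the VEGF-A receptor, was 469 and 233 CPM there and Flt1 373 and 350 CPM. Ramp1 (36.9 and 9.93 CPM) and Calcrl (35.8 and 17.4 CPM), parts of receptors for peptides of the adrenomedullin family, and the PDGF-B receptor Pdgfrb (44.0 and 18.8 CPM) had the ratios of largest size among those 8. Pdgfra, the receptor of Pdgfa, stayed just under the minimum there, with 5 UMIs in control (1.77 CPM) and 95 UMIs in OIR (19.2 CPM). In endothelial-like cells 6 of 13 measured receptors were higher and 3 lower, against 22.7% and 31.5% of all genes. Tek, the angiopoietin receptor, was 268 and 41.7 CPM there, and Aplnr 292 and 91.7 CPM. Microglia-like cells had 5 measured receptors, 0 higher and 3 lower, among them the VEGF co-receptor Nrp1 (84.5 and 44.1 CPM), in a class where 12.9% of all genes were higher and 27.6% lower. In cone-like cells Flt1 was 24.8 and 56.6 CPM (log2 ratio 1.19).

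Genes switched on at low oxygen moved unevenly over the classes that supply Vegfa. At 1.5-fold, 9 of 16 measured genes were higher and 1 lower in Müller-like cells, against 8.87% and 12.8% of all genes. The median log2 ratio was 0.73 there, against -0.03 for all genes. In bipolar-like cells 11 of 16 were higher and 0 lower (median 0.67), against 4.08% and 6.27% of all genes. The glycolytic gene Hk2 led them, at 22.5 and 178 CPM. In rod-like cells 1 of 15 was higher and 1 lower (median -0.09), against 4.17% and 1.57% of all genes. In cone-like cells 2 of 14 were higher and 1 lower (median 0.08), against 3.93% and 2.30%. Bnip3, a mitophagy gene, was the 1 higher in rod-like cells (32.3 and 77.0 CPM), while Hilpda, a lipid droplet gene, was the 1 lower (76.4 and 40.2 CPM). In Mmp12-led cells 14 of 17 were higher and 0 lower (median 1.66), where 11.9% of all genes were higher and 17.3% lower. In microglia-like cells 9 of 14 were higher and 0 lower (median 1.26), against 12.9% and 27.6%. Egln3, an oxygen-sensing enzyme, was 1.06 and 26.5 CPM in Müller-like, 4.76 and 32.9 in microglia-like and 5.09 and 107 CPM in Mmp12-led cells. In pericyte-like cells 12 of 16 were higher and 2 lower (median 1.07), against 22.3% and 32.3% of all genes. In endothelial-like cells 7 of 14 were higher and 3 lower (median 0.33), against 22.7% and 31.5%.

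Other ligands of the same pathways also differed between the libraries. Fgf2, a growth factor that photoreceptors and glia make after injury, was 15.9 and 110 CPM in rod-like cells, 20.4 and 77.6 in cone-like and 18.4 and 92.8 CPM in Müller-like cells. Edn2, an endothelin of photoreceptors, was 1.21 and 30.6 CPM in rod-like cells. The chemokine Cxcl12 was 3.90 and 26.5 CPM in Müller-like cells. The 3 ligands of this list that were measured in Müller-like cells (Cxcl12, Fgf2 and Hbegf) reached 20 CPM only in OIR, so that their being higher there was fixed by the minimum. Cxcl12 in endothelial-like cells was 521 CPM in control and 25.01 CPM (3 UMIs) in OIR. Edn1, the vessel-constricting endothelin, was 162 and 767 CPM in endothelial-like cells. Igf1 was 16.6 and 179 CPM in microglia-like cells. Among factors that restrain vessel growth, Thbs1 was 7.89 and 550 CPM in endothelial-like cells but 73.8 and 19.8 CPM in Mmp12-led cells. Timp3 was 13.5 and 56.5 CPM in cone-like cells but 449 and 145 CPM in pericyte-like cells. Of the measured members of this list, 3 of 5 were higher and 1 lower in endothelial-like cells, against 22.7% and 31.5% of all genes. Those 3 included Pf4, on 0 and 4 UMIs, and Vash1, on 5 and 6 UMIs. In Mmp12-led cells 1 of 3 was higher and 2 lower, against 11.9% and 17.3%. In Müller-like cells 1 of 4 was higher and 1 lower, against 8.87% and 12.8%.

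The patterns over classes were also set against all other genes. Over 23 sums of a class in a library with at least 100000 UMIs, and 11568 genes, the gene most like Adm was Apln (Pearson r = 0.98 on log2(CPM + 10)), followed by Cdh13 (0.97) and Hspg2 (0.95). The genes most like Pdgfb were Ecscr, Arap3 and Cd34 (0.98, 0.97 and 0.97). Vegfa was most like Ddr1, Rab11fip4 and Fam19a5 (0.89, 0.88 and 0.86), Vegfb like Psmd14, Atp6v1f and Atp6v1g1 (0.82, 0.81 and 0.80), and Pdgfa like Rapgef4, Emc10 and Rbms3 (0.76, 0.72 and 0.71). The sums share libraries and differ in depth, so these values describe likeness across classes only.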

How the data were processed

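Each library was deposited as a gene-by-barcode matrix of unnormalised UMI counts, which the authors made with Cell Ranger 3.0.2 on build mm10, per the submitters' processing notes. How reads were aligned and cells called was not given in the sources used here. Cells with at least 500 genes and at most 10% mitochondrial UMIs were kept. Scrublet's automatic threshold marked 1 and 0 doublets, and instead the barcodes with the highest scores, 0.8% per 1000 cells, were taken out (938 in control and 424 in OIR, of which 869 and 384 had passed the filter). Cells were log-normalised and clustered with scanpy 1.11.5 on 2000 variable genes, 30 components and 20 neighbours (Leiden resolution 1). The 9 factors, sex-linked, mitochondrial and haemoglobin genes took no part. All cells were clustered first, and then all cells outside the clusters led by rod markers were clustered again together. Larger clusters of this second step in which a second class also scored 3 or more were clustered again by themselves. This gave 34 clusters. Clusters took the class whose markers lay highest over the mean of the other clusters (a mean log2 fold of 0.5 or more), provided that 3 or more were found in 10% of the cells and no other class had more among the top 10 genes. Astrocytes, monocytes, dendritic cells, T cells, B cells, erythroid cells, oligodendrocytes and fibroblasts gave no class.

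Counts were summed by class and library and scaled to CPM here. Intervals at 95% are exact Poisson (CPM), Clopper-Pearson (shares) and conditional binomial (ratios), made with scipy 1.17.1. A count of 0 was set to 3 counts. The interval step was checked on simulated independent Poisson counts, the model that the intervals assume. Such counts leave out the uneven spread of UMIs over cells, so the check does not cover it. The members and lists were chosen with earlier results of these data known. The 9 factors are always named; from the lists, the 3 genes with the largest ratio in a class could be named, and for 5 factors the 3 most similar genes. Kdr, Aplnr, Ddx3y and the Flt1 and Pdgfra values in Müller-like cells were added after their values were seen, as was Esm1 as a cluster name.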

Additional observations from a re-analysis of the deposited data

Results flagged for a closer look

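Pdgfa went in opposite directions between classes in the same comparison. Its log2 ratio of OIR over control was -3.51 in endothelial-like cells and -1.51 in pericyte-like cells, but 1.51 in Mmp12-led cells. Pdgfb did so too, at 1.16 in pericyte-like cells and -1.61 in microglia-like cells. The pericyte-like values differed with the endothelial RNA in the barcodes. In pericyte-like barcodes with at least 10 Cldn5 UMIs the ratio of Pdgfa was 1.74 (-0.31 to 4.88) and that of Pdgfb 0.37 (-0.38 to 1.19). In the others Pdgfa was at -1.09 (-2.48 to 0.06), and Pdgfb had 3 control and 0 OIR UMIs. In the Selplg-led microglia-like cluster Pdgfb was at -0.76, under 2-fold. Each of the 5 class ratios has an interval that excludes 0, and the difference between the classes was not tested, since each class has 1 library per group. The endothelial-like value of Pdgfa rests on 1 OIR UMI.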

How the results depend on the processing

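No paired analysis was possible because each group has 1 library, and no library could be left out. The 32 ratios of the factors were recomputed under those of 12 alternatives that applied, giving 224 values, of which 197 stayed within the counting interval, 25 moved outside it and 2 called ratios changed direction. The latter were Pgf (-0.96) and Angpt2 (-2.50) in pericyte-like cells without the barcodes of 10 or more Cldn5 UMIs. The log2 ratio of Vegfa in Müller-like cells (0.93) became 0.27 at a mitochondrial limit of 5%, 0.81 with doublet calls kept, 0.53 with each cell named by itself and 1.16 without cells of 2% or more rod RNA. In cone-like cells (1.52) it became 1.07 at Leiden resolution 0.5, 1.34 with each cell named by itself, 0.46 without rod RNA and 0.89 without Müller glia RNA, and in rod-like cells (1.85) 1.54 with each cell named by itself. In Müller-like cells at the 5% limit, Adm became 1.98, Apln 1.03 and Pgf 1.85. Adm became 1.77 in endothelial-like cells with each cell named by itself. The cause of these moves was not tested.

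Counts of genes called higher at a minimum of 50 CPM, and then with no minimum, were 113 and 641 (Müller-like cells), 180 and 915 (microglia-like), 51 and 1243 (rod-like), 57 and 748 (cone-like) and 47 and 344 (bipolar-like). Counts called lower, in the same order, were 160 and 759, 312 and 981, 5 and 99, 7 and 148, and 18 and 336. In Mmp12-led cells they were 113 higher and 136 lower at 50 CPM. Median-of-ratios scaling gave 9 lower in cone-like cells, and 542 higher and 264 lower in microglia-like cells. The receptors' median in microglia-like cells became 0.0071 with no minimum. Alternatives that left out Müller glia RNA, Cldn5 barcodes or shallow endothelial barcodes, or added the Mmp12-led cells to the microglia-like class, were chosen after seeing the data. Leaving the Mmp12-led cluster out of the microglia-like class was not run, since it was not in that class.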
